A study of Drosophila melanogaster with 16 samples.

Results

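Whole Drosophila melanogaster embryos transheterozygous for ORE50 and ORC4, a different allele on each homologue, were set against wild-type embryos of the same age. Both genotypes that carry these alleles are labelled as mutants of Lola-I, a protein isoform of the gene lola. The ORE50/ORC4 transheterozygotes at 14 to 17 h were sampled in 4 libraries and the OregonR wild type (wt) at 14 to 17 h in 5, which are 9 of the 16 libraries of the series. The wt libraries carry the title numbers 1, 2, 3, 5 and 6. Polyadenylated RNA was measured in all of them, in whole embryos. The 4 ORC4 libraries of the same age entered the fit, where they share the estimate of the spread, and OregonR embryos of 2 to 4 h (3 libraries) are used only for their levels. The labels do not say whether replicates were separate collections, so p-values measure the spread between these libraries, which may be technical.

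Lola belongs to the BTB zinc-finger family of transcription factors. Alternative splicing joins a shared BTB domain to many different zinc-finger ends, so that each isoform can recognise its own DNA sites, and lola is best known for its roles in axon growth and in neuronal identity. The age studied is the end of embryogenesis, when organs that were laid down earlier switch on the genes of their final function: the midgut makes digestive enzymes, the epidermis secretes cuticle, muscles build sarcomeres and neurons make channels and synapses.

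The ORE50/ORC4 libraries held between 9025882 and 13226262 estimated counts. Depth in wt fell into separate classes, with 28717036, 28885871 and 32521626 in wt 1, 2 and 3 and 10388386 and 10202584 in wt 5 and 6. A count of 0 allows a level of up to 3 counts, which is 0.227 to 0.332 CPM (counts scaled to the library total) in an ORE50/ORC4 library and 0.0922 to 0.294 CPM in a wt library, for counting error only. The mitochondrial genome took 9.92% ± 1.16 (SD, n = 4) of counts in ORE50/ORC4, against 7.59% ± 1.16 (SD, n = 5) in wt, and within wt the share was higher in libraries 5 and 6 (9.21% and 8.40%) than in libraries 1 to 3 (at most 7.10%). Because depth class, mitochondrial share and several early-type transcripts differ within wt, many of the counts by gene group are also given against wt 5 and 6 alone, which have the depth of the mutant libraries. In a principal component analysis of the 9 libraries of both groups, the first component held 71.9% of the variance.

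Of 17753 genes, 11431 had enough counts to be tested, and 3087 were lower (27.0%) and 3083 higher (27.0%) in ORE50/ORC4 than in wt at an adjusted p under 0.05. The median log2 fold change was 0.01. The falls were larger than the rises: 1325 genes fell at least 2-fold (11.6%), against 600 that rose as much (5.25%), and 328 fell at least 8-fold, against 84 that rose as much. All 4 ORE50/ORC4 libraries lay below all 5 wt libraries in CPM for 2703 genes (23.6%) and above them for 2255 genes (19.7%). With limma on log2(TPM + 1) the split was 3522 lower (30.8%) and 2164 higher (18.9%), so the balance of falls and rises depends on the test. Against wt 5 and 6 alone, 2841 of 10999 genes were lower (25.8%) and 2738 higher (24.9%), and against wt 1 to 3 alone 2556 of 11483 were lower (22.3%) and 2515 higher (21.9%). Of the 3087 genes lower against all wt, 2529 were also called lower against wt 5 and 6 and 0 were called higher. Of the 3083 higher genes, 2419 were called higher against wt 5 and 6 and 0 lower. Genes whose span overlaps another gene made up 48.2% of those tested, 44.7% of the lower and 48.7% of the higher. Reads in an overlap may belong to either gene, so such genes are named as overlapping below.

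Gene lists were drawn up by tissue and function and are described by how many tested members were lower and higher, to be read against 27.0% of all tested genes in each direction. That share varied with gene span, from 20.2% lower and 33.6% higher at 1000 to 2000 bases to 34.9% lower and 16% higher above 20000 bases. The lists were not matched for span. A gene with few counts in ORE50/ORC4, ORC4 and wt alike was not tested, so the counts cover only the members that passed that filter. Without the ORC4 libraries in the fit, 10661 genes passed it. Whole-embryo RNA cannot tell fewer cells of a type from less RNA per cell. Levels are in TPM, deposited values scaled for length and depth. The deposited values divide by the whole gene span, introns included, so TPM understates intron-rich genes and levels of different genes are not compared.

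**Figure D1:**
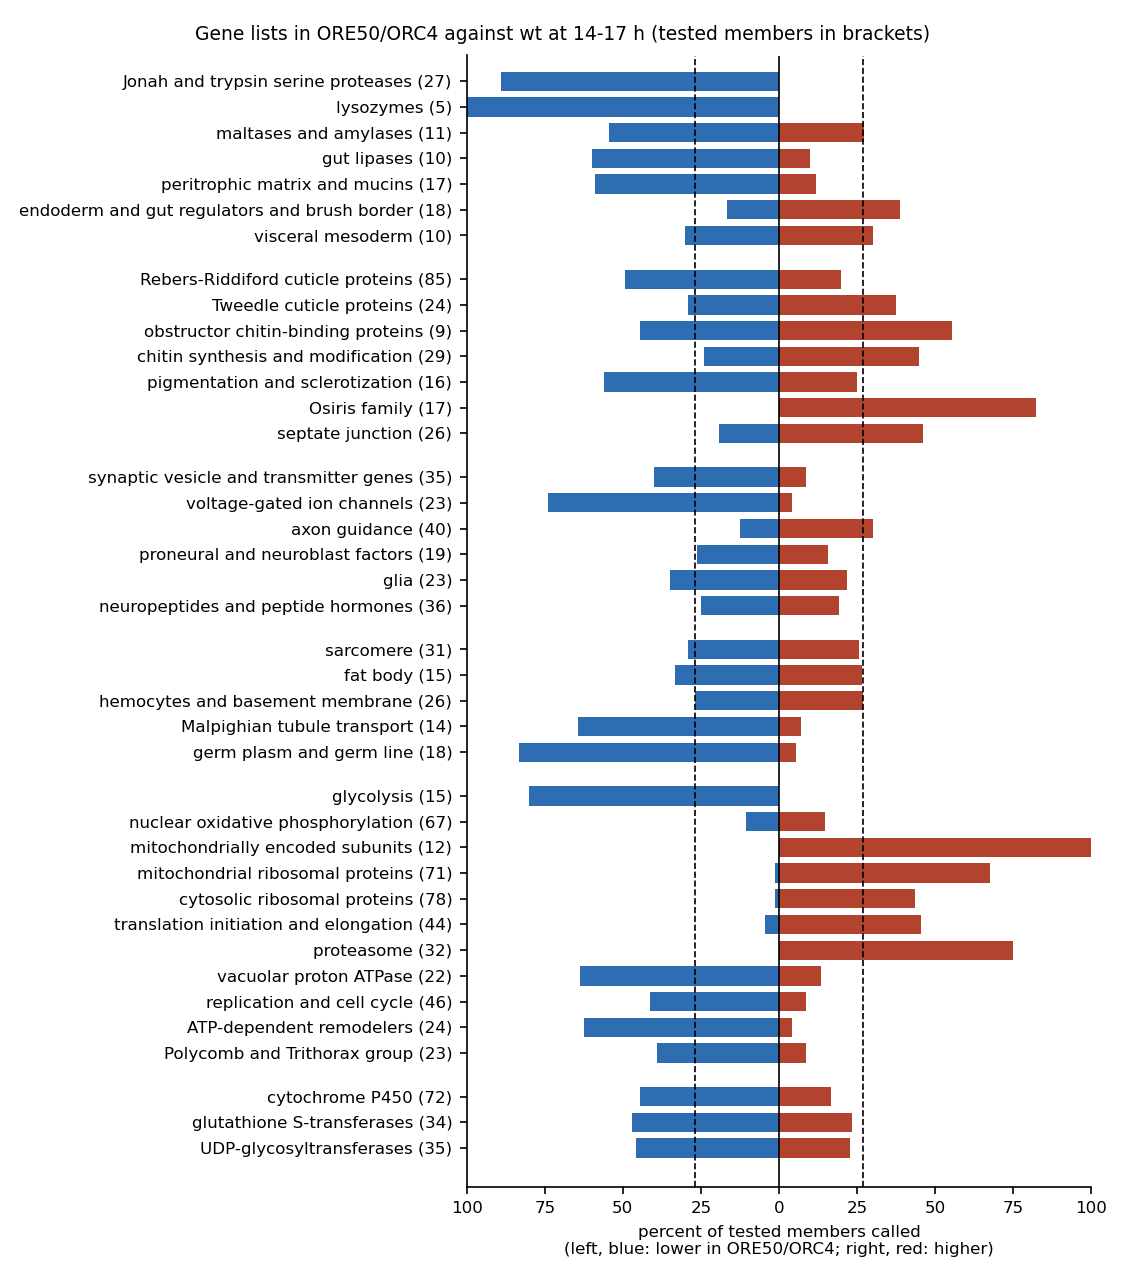
Share of tested members lower (to the left) and higher (to the right) in ORE50/ORC4 than in wt at 14 to 17 h, in percent, for gene lists by tissue and function. Dashed lines mark 27.0%, the share of all tested genes called in each direction; the Jonah and trypsin proteases (24 of 27 lower), the lysozymes (5 of 5 lower) and the Osiris family (14 of 17 higher) stand far outside them.

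The gene lola itself (chr2R:10481894-10543291, minus strand, BDGP6) had 28.6, 36.8, 26.1 and 28.3 TPM in ORE50/ORC4, against 39, 42.7, 36.7, 47 and 45.5 TPM in wt. The ORE50/ORC4 values are lower, except that ORE50/ORC4 2 reaches the lowest wt library, wt 3. The log2 fold change was -0.42 ± 0.12 (SE; adjusted p = 0.0117, edgeR), and -0.59 against wt 5 and 6 (adjusted p = 0.00634), but -0.30 against wt 1 to 3 (adjusted p = 0.0822). All isoforms share this value and the span overlaps 6 other annotated genes, so the total says nothing of Lola-I on its own and does not check the alleles. Among 19 tested lola and BTB transcription factor genes, 6 were lower (log2 fold changes from -1.84 to -0.40) and 4 higher (0.25 to 0.79). Both further members named here were higher: lolal, which encodes a short BTB-only protein and rose to 144 ± 18.9 TPM (SD, n = 4) in ORE50/ORC4, against 96.2 ± 8.19 TPM (SD, n = 5) in wt, and ken, a BTB repressor with a log2 fold change of 0.61 ± 0.12 (SE).

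The largest falls were in the digestive enzymes of the midgut. Of 27 tested Jonah and trypsin serine proteases (30 listed), which cut dietary protein in the gut lumen, 24 were lower and 0 higher, with a median log2 fold change of -3.96, and 23 of 26 were lower against wt 5 and 6. The summed level of the list was 666, 596, 892 and 736 TPM in ORE50/ORC4, against 6749, 2605, 4552, 4035 and 4791 TPM in wt. The groups were far apart, although wt itself ranged widely, with wt 1 highest and wt 2 lowest. In wt of 2 to 4 h the sum was 17.3 TPM.

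The protease Jon99Fi (chr3R:30488963-30489895) had 0, 0.28, 0 and 0.266 TPM in ORE50/ORC4, against 672, 158, 335, 260 and 380 TPM in wt. It was close to undetected in the mutant and abundant in every wt library, a 2763-fold lower level by counts (95% counting interval 765 to 22819) with a log2 fold change of -11.19 ± 0.76 (SE; adjusted p = 1.6e-07). Jon25Bi (chr2L:4954279-4955144) had 0.515, 0, 0 and 0 TPM in ORE50/ORC4, against 317, 111, 153, 143 and 158 TPM in wt, and its neighbour Jon25Bii had 0.494 TPM at most in ORE50/ORC4, against 81.4 TPM at least in wt. For Jon25Bi the level by counts was 1238-fold lower (95% counting interval 343 to 10226). Without ORE50/ORC4 1, the only mutant library with a count, the fitted log2 fold changes were -13.14 for Jon25Bi and -12.97 for Jon25Bii, and without ORE50/ORC4 3 that of Jon99Fii was -11.72 and that of Jon99Ciii -10.26. The values of Jon99Fi, Jon99Fii, Jon99Cii and Jon99Ciii are fractional in 6 to 8 of the 9 libraries, since these are pairs of near-identical copies whose reads can be split between them.

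Among the trypsins, epsilonTry had 0.272, 0, 0.352 and 0.309 TPM in ORE50/ORC4, against 238, 69.2, 145, 143 and 164 TPM in wt, with a log2 fold change of -9.20 ± 0.63 (SE; adjusted p = 1.72e-07). A smaller fall was seen in alphaTry, with 7.61, 6, 14 and 4.14 TPM in ORE50/ORC4, against 140, 91.5, 202, 246 and 218 TPM in wt, and in zetaTry, with a log2 fold change of -1.82 ± 0.32 (SE). Both trypsins had non-overlapping groups. The fall was graded and did not reach every protease: Jon65Aiv had 60.6, 67.5, 105 and 78.4 TPM in ORE50/ORC4, against 745, 388, 606, 484 and 616 TPM in wt, and yip7 fell to 86.8 ± 39.4 TPM (SD, n = 4) in ORE50/ORC4, against 385 ± 89.5 TPM (SD, n = 5) in wt. Jon65Aiii had 284, 274, 285 and 285 TPM in ORE50/ORC4, against 389, 194, 282, 233 and 278 TPM in wt, and lambdaTry had log2 fold change -0.16 ± 0.20 (SE). The ORE50/ORC4 values of Jon65Aiii lie inside the wt range, and neither Jon65Aiii (adjusted p = 0.56) nor lambdaTry (adjusted p = 0.532) passed the test.

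**Figure D2:**
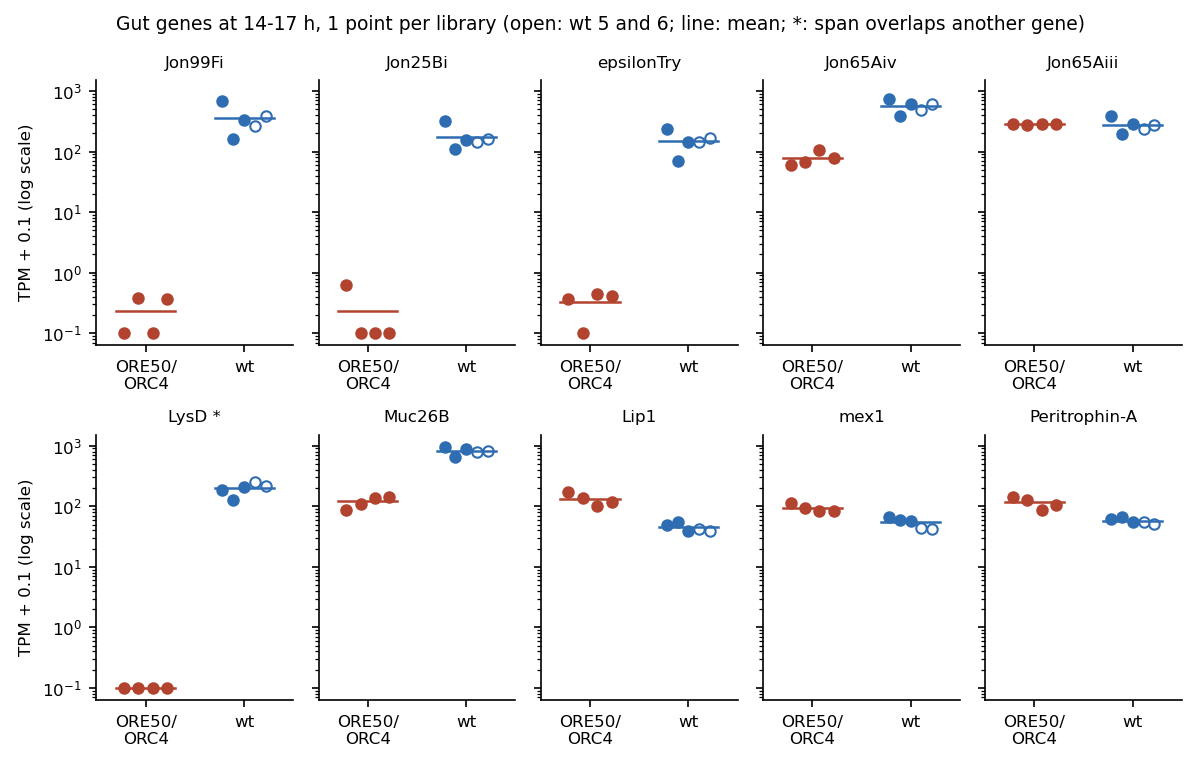
TPM + 0.1 on a log axis for 10 midgut genes in each of 4 ORE50/ORC4 (left in each pair) and 5 wt libraries at 14 to 17 h; open points are wt 5 and 6, lines are means and an asterisk marks a gene whose span overlaps another. Jon99Fi, Jon25Bi, epsilonTry and LysD lie near 0 in ORE50/ORC4, Jon65Aiii overlaps wt, and Lip1, mex1 and Peritrophin-A lie above wt.

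All 5 tested lysozymes (7 listed), enzymes that digest bacterial walls in the fly gut, were lower, and their sum was 1.05 ± 1.21 TPM (SD, n = 4) in ORE50/ORC4, against 405 ± 94.7 TPM (SD, n = 5) in wt. LysD had 0 TPM in all 4 ORE50/ORC4 libraries, against 184, 126, 208, 252 and 215 TPM in wt, at least 91.2-fold lower with 3 counts per library as the floor. The lysozymes lie in overlaps and are near-identical copies: LysD overlaps LysC and mwh, and the 3 genes together had 69.3 ± 6.73 CPM (SD, n = 4) in ORE50/ORC4, against 97.1 ± 14.3 CPM (SD, n = 5) in wt. Of 17 tested peritrophic matrix and mucin genes, which line the gut, 10 were lower and 2 higher, and 10 of 15 were lower against wt 5 and 6. Muc26B had 88.1, 111, 139 and 144 TPM in ORE50/ORC4, against 959, 639, 866, 773 and 816 TPM in wt, a log2 fold change of -2.66 ± 0.27 (SE; adjusted p = 5.55e-06), and the groups did not overlap. Peritrophin-15a was detected in ORE50/ORC4 3 alone of the mutant libraries (1.91 TPM), against 41.1 to 195 TPM in wt. Without that library its log2 fold change was -10.61, against -7.46 with it.

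Of 10 tested gut lipases, 6 were lower and 1 higher. The lower ones include CG6295 and CG6296, with 0 TPM in all ORE50/ORC4 libraries, against 14.5 to 59.9 TPM and 17.4 to 61.3 TPM in wt. All of the lower lipases overlap another gene (CG6277, CG6295 and CG6296 the span of RYa-R), and CG6296 and RYa-R together had 5.39 ± 1.18 CPM (SD, n = 4) in ORE50/ORC4, against 39.4 ± 14.9 CPM (SD, n = 5) in wt. Lip1 went the other way, with 172, 136, 99.4 and 119 TPM in ORE50/ORC4, against 49.4, 55.4, 38.5, 41.9 and 39.7 TPM in wt. It overlaps no gene and its groups were apart (log2 fold change 1.63 ± 0.18, SE; adjusted p = 1.11e-05). Of 11 maltases and amylases, 6 were lower and 3 higher, but 3 were lower against wt 1 to 3. Mal-A3 had 115, 135, 173 and 176 TPM in ORE50/ORC4, against 224 to 279 TPM in wt, and did not pass against wt 1 to 3 (adjusted p = 0.0633).

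Of 18 tested genes of the endoderm, gut regulator and brush border list, 3 were lower and 7 higher (1 higher with limma), with a summed level of 1335 ± 90.2 TPM (SD, n = 4) in ORE50/ORC4, against 1214 ± 74.9 TPM (SD, n = 5) in wt. GATAe, the GATA factor of differentiating endoderm, had 23.8, 30.5, 20.1 and 22.6 TPM in ORE50/ORC4, against 21.5, 20.5, 19.8, 17.6 and 19.4 TPM in wt, a log2 fold change of 0.37 ± 0.07 (SE; adjusted p = 0.00111) that did not pass with limma on log2(TPM + 1) (adjusted p = 0.0609). Its TPM ranges overlap. The midgut transcript mex1 rose to 94.1 ± 13.8 TPM (SD, n = 4) in ORE50/ORC4, against 54 ± 10.5 TPM (SD, n = 5) in wt. The smooth septate junction genes Ssk and Tsp2A, which seal gut epithelia, had log2 fold changes of 0.32 ± 0.12 and 0.09 ± 0.13 (SE), of which only that of Ssk passed the test (adjusted p = 0.0418), and not against wt 5 and 6 alone (adjusted p = 0.104). Myo61F, a brush border myosin, fell to 32.6 ± 3.73 TPM (SD, n = 4) in ORE50/ORC4, against 54.1 ± 6.61 TPM (SD, n = 5) in wt. Of 10 genes of the visceral mesoderm, which wraps the gut, 3 were lower and 3 higher, but 1 was lower against wt 1 to 3, without wt 5, without wt 6, without ORE50/ORC4 1 or without ORE50/ORC4 4. The higher ones include Hand (log2 fold change 0.86 ± 0.12, SE) and Fas3 (0.77 ± 0.10).

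Cuticle proteins with the Rebers-Riddiford chitin-binding domain had 42 of 85 tested members lower and 17 higher (100 listed), and 35 of 80 lower against wt 5 and 6. Their sum was 32429, 36428, 52534 and 52032 TPM in ORE50/ORC4, against 71199, 66969, 75896, 59719 and 62983 TPM in wt. Libraries ORE50/ORC4 1 and 2 stood lower than 3 and 4, and all 4 were below wt. Lcp65Ag3 had 3684, 4106, 6999 and 6801 TPM in ORE50/ORC4, against 13485, 10672, 13225, 11666 and 12749.7 TPM in wt, with the same split among the mutant libraries. Its copies are near-identical and its values are fractional in 9 of 9 libraries. Cpr65Ea, another member, was not called, with 8282, 10279.5, 10389.8 and 12555 TPM in ORE50/ORC4, against 12102, 13216, 13209, 7943 and 8143 TPM in wt. In Cpr65Ay the ORE50/ORC4 maximum was 1.25 TPM, against at least 11 TPM in wt (log2 fold change -4.75, or -5.38 without ORE50/ORC4 3), whereas Lcp3, a larval cuticle protein, had 12.9, 10.5, 9.84 and 13.3 TPM in ORE50/ORC4, against at most 0.374 TPM in wt (log2 fold change 7.07, or 7.71 without wt 6).

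Of 24 tested Tweedle cuticle proteins, a family found in insects, 7 were lower (29.2%), near the share of all tested genes. A further 9 were higher (37.5%, against 27.0% of all tested genes), 4 of them at least 2-fold. TwdlF had 6299, 5112, 2909 and 3872 TPM in ORE50/ORC4, against 1481, 1488, 910, 1107 and 968 TPM in wt, and TwdlM had 3479, 4539, 6620.3 and 6599 TPM in ORE50/ORC4, against 10755, 11036, 12152, 9153 and 9802 TPM in wt. ORE50/ORC4 1 and 2 thus lay farther from wt than 3 and 4 for both genes, and neither gene's groups overlapped. TwdlF rose by a log2 fold change of 2.02 ± 0.26 (SE; adjusted p = 3.55e-05). TwdlM fell by 0.89 on the log2 scale (adjusted p = 0.00436), but its p was 0.0523 against wt 5 and 6. TwdlO fell to 1.61 ± 0.87 TPM (SD, n = 4) in ORE50/ORC4, against 20.5 ± 19.7 TPM (SD, n = 5) in wt, and its log2 fold change of -3.61 was -2.98 without wt 1.

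The Osiris family, insect membrane proteins with roles in the trafficking and shaping of cuticle, were mostly higher. Of 17 tested members (23 listed), 14 were higher and 0 lower, with a median log2 fold change of 2.07, and all 4 ORE50/ORC4 libraries lay above all wt libraries in CPM for 10 of them. The summed level was 12338, 11512, 4860.4 and 6827 TPM in ORE50/ORC4, against 2745, 3414, 2053, 1959.8 and 1759 TPM in wt. The family was highest in ORE50/ORC4 1 and 2, and in wt it was highest in libraries 1 and 2. Against wt 5 and 6, 12 of 16 were higher, against wt 1 to 3, 9 were higher, and without ORE50/ORC4 1, 9 were higher. Most members lie in a cluster on chromosome arm 3R. Osi20 (chr3R:6340095-6341424) had 3062, 2577, 1435 and 1954 TPM in ORE50/ORC4, against 627, 739, 410, 578 and 486 TPM in wt, a log2 fold change of 2.07 ± 0.25 (SE; adjusted p = 2.11e-05). Osi15, Osi18 and Osi14 rose likewise with log2 fold changes of 1.56, 2.15 and 2.38. Osi6 was less even, with 2144, 2058, 391 and 643 TPM in ORE50/ORC4, against 337, 528, 337, 76.8 and 129 TPM in wt. Its groups overlapped, and its log2 fold change of 2.29 ± 0.74 (SE; adjusted p = 0.019) did not pass without ORE50/ORC4 1 (adjusted p = 0.0639) or against wt 1 to 3 (adjusted p = 0.0968). Osi7 had the same pattern over libraries, and did not pass without ORE50/ORC4 1 (adjusted p = 0.0673) or without ORE50/ORC4 2 (adjusted p = 0.0598).

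**Figure D3:**
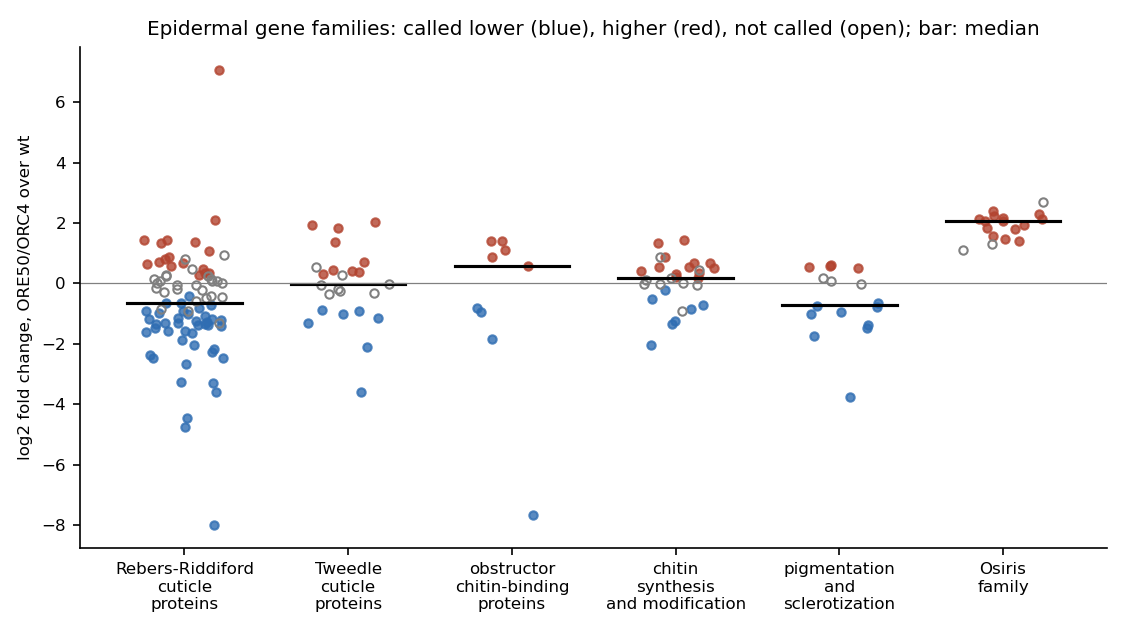
Log2 fold change (ORE50/ORC4 over wt) of every tested member of 6 epidermal gene lists, with a bar at each list's median. The Rebers-Riddiford members spread to both sides with a median of -0.65, the Tweedle members centre on -0.03, and the Osiris members lie above 0 with a median of 2.07.

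All 9 tested obstructor genes, which encode secreted chitin-binding proteins, were called, 4 lower and 5 higher, and their sum was 1947 ± 234 TPM (SD, n = 4) in ORE50/ORC4, against 1149.8 ± 116 TPM (SD, n = 5) in wt. The member obst-A had 1165, 1101, 818 and 999 TPM in ORE50/ORC4, against 482, 469, 345, 383 and 365 TPM in wt, and Gasp had 541, 540, 344 and 458 TPM in ORE50/ORC4, against 221, 219, 145, 192 and 172 TPM in wt. Peritrophin-A, which stands in this list and in that of the peritrophic matrix, rose to 116 ± 23.7 TPM (SD, n = 4) in ORE50/ORC4, against 58 ± 6.94 TPM (SD, n = 5) in wt. The groups of these 3 genes did not overlap. By contrast obst-F fell to 3.81 ± 1.48 TPM (SD, n = 4) in ORE50/ORC4, against 14.4 ± 2.56 TPM (SD, n = 5) in wt. Of 29 chitin synthesis and modification genes, 7 were lower and 13 higher (8 higher with limma), among them knk, which organises chitin and rose with a log2 fold change of 1.44 ± 0.16 (SE). The deacetylase Cda9 fell with a log2 fold change of -2.03 ± 0.35 (SE). The apical matrix gene dyl had 73.3, 74.1, 21.2 and 33.1 TPM in ORE50/ORC4, against 16, 20.2, 12.9, 11.6 and 11.5 TPM in wt, with ORE50/ORC4 1 and 2 again far above 3 and 4.

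The pigmentation and sclerotization genes, which tan and harden cuticle, had 9 of 16 tested members lower and 4 higher, with 5 of 15 lower and 3 higher against wt 5 and 6 and 5 lower without ORE50/ORC4 1. Their sum was 240 ± 29 TPM (SD, n = 4) in ORE50/ORC4, against 407 ± 11.2 TPM (SD, n = 5) in wt. The yellow family member yellow-h (chr4:227922-230428) had 3.66, 5.49, 3.72 and 2.88 TPM in ORE50/ORC4, against 60.9, 59.3, 54.9, 48.2 and 57 TPM in wt, a log2 fold change of -3.75 ± 0.14 (SE; adjusted p = 6.66e-10). It overlaps an antisense gene. Ddc, the dopa decarboxylase that makes dopamine for tanning, had 23.3, 34, 60.3 and 58.9 TPM in ORE50/ORC4, against 88.5, 92.5, 109, 79.8 and 82.1 TPM in wt. Its log2 fold change of -0.93 ± 0.31 (SE; adjusted p = 0.0205) did not pass against wt 5 and 6 (adjusted p = 0.129), without ORE50/ORC4 1 (adjusted p = 0.0605) or without ORE50/ORC4 2 (adjusted p = 0.0633). The oxidase gene stw (laccase2) rose to 17.9 ± 2.34 TPM (SD, n = 4) in ORE50/ORC4, against 13 ± 1.1 TPM (SD, n = 5) in wt. Septate junction genes, which seal epidermal cells, had 5 of 26 lower and 12 higher, with Gli at a log2 fold change of 0.63 ± 0.05 (SE), kune at 0.40 ± 0.07 and Atpalpha at -0.42 ± 0.08.

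In the nervous system, genes of electrical activity were mostly lower. Of 23 tested voltage-gated ion channel genes, 17 were lower and 1 higher, with a median log2 fold change of -0.60, and 13 were lower and 0 higher against wt 5 and 6. Their sum was 137, 201, 162 and 164 TPM in ORE50/ORC4, against 249, 236, 240, 227 and 223 TPM in wt. ORE50/ORC4 1 was lowest, and the groups did not overlap. The gene qvr (chr2R:11442505-11451604), whose product regulates the Shaker potassium channel, had 3.16, 5.16, 3.75 and 3.8 TPM in ORE50/ORC4, against 24.4, 20.7, 21.4, 21.8 and 23.7 TPM in wt, a log2 fold change of -2.42 ± 0.11 (SE; adjusted p = 4.17e-09). The presynaptic calcium channel cac had 2.59, 4.52, 3.26 and 3.21 TPM in ORE50/ORC4, against 9.61, 9.01, 8.86, 7.89 and 8.14 TPM in wt. Lower values were also found for the L-type calcium channel Ca-alpha1D (log2 fold change -0.85 ± 0.06, SE; adjusted p = 3.17e-07) and for Sh, the Shaker channel (-0.68 ± 0.12; adjusted p = 0.000559), which overlaps 3 genes. The sodium channel para had 4.49, 9.23, 7.12 and 7.13 TPM in ORE50/ORC4, against 13, 11.9, 12.8, 9.21 and 9.04 TPM in wt. Its ranges overlap, and its log2 fold change of -0.60 ± 0.17 (SE; adjusted p = 0.00888) was -0.35 against wt 5 and 6 (adjusted p = 0.185). The single higher gene, the sodium channel auxiliary Teh4, did not pass against wt 5 and 6 (adjusted p = 0.0875).

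Of 35 tested synaptic vesicle and transmitter genes, 14 were lower and 3 higher. Among the 14 members that overlap no other gene, 4 were lower and 2 higher. That is near the 28.8% lower and 26.7% higher of all tested genes without an overlap, so the excess of lower members lies in overlapping genes. The vesicle fusion protein nSyb (chr3L:1630348-1637752) had 22.6, 33, 29.1 and 28.3 TPM in ORE50/ORC4, against 99.6, 86.7, 90.1, 91.9 and 96.8 TPM in wt, a log2 fold change of -1.64 ± 0.10 (SE; adjusted p = 5.5e-08). Its groups were far apart, as were those of stnA, an endocytic gene that shares its transcript with stnB, with 4.88, 8.23, 5.48 and 6.4 TPM in ORE50/ORC4, against 15.3 to 18 TPM in wt. Gad1, which makes GABA and overlaps CG14989, had 12.6, 17.4, 16.9 and 17.4 TPM in ORE50/ORC4, against 24.5, 25.4, 27.5, 31 and 30.8 TPM in wt. The general neuronal gene elav had 26.3, 39.3, 20.9 and 25.2 TPM in ORE50/ORC4, against 31.3, 33.5, 25.9, 25.3 and 23 TPM in wt, and the active-zone scaffold brp had 15, 27.2, 17.4 and 19.1 TPM in ORE50/ORC4, against 23.5, 22.2, 21.5, 20.6 and 20.8 TPM in wt. The ranges of elav and brp overlap and neither passed the test (adjusted p = 0.641 and 0.573), but brp passed as lower without ORE50/ORC4 2 (adjusted p = 0.0446). Nicotinic acetylcholine receptor subunits had 4 of 10 lower and 0 higher, with nAChRbeta1 at a log2 fold change of 0.03 ± 0.07 (SE).

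Axon guidance genes had 5 of 40 members lower and 12 higher, and 2 lower and 14 higher against wt 5 and 6. The higher count was 3 with limma and 7 without ORE50/ORC4 2, and the lower count was 3 without ORE50/ORC4 3. Sema1b, a semaphorin, had 46.2, 60.3, 46.9 and 52.8 TPM in ORE50/ORC4, against 36.3, 40.1, 35.1, 35.4 and 36.3 TPM in wt, a log2 fold change of 0.57 ± 0.06 (SE; adjusted p = 3.67e-06), and its groups were apart. The receptor phosphatase Ptp69D fell to 24.3 ± 4.5 TPM (SD, n = 4) in ORE50/ORC4, against 36.7 ± 4.54 TPM (SD, n = 5) in wt. Of 19 proneural and neuroblast factors, 5 were lower and 3 higher, but 2 lower without ORE50/ORC4 1 or without ORE50/ORC4 3, 3 lower without wt 2 and 2 lower against wt 5 and 6. Among them nerfin-1, a zinc-finger factor of young neurons, had 21.1, 25, 17 and 18.8 TPM in ORE50/ORC4, against 11.1, 16.4, 11.1, 10 and 10.9 TPM in wt. Glial genes had 8 of 23 lower and 5 higher. The higher count was 3 against wt 5 and 6, without wt 1, 2 or 3 or without ORE50/ORC4 4, and 2 against wt 1 to 3 or with limma. The list holds Gs2, the glutamine synthetase, at 34.1, 39.4, 49.6 and 43.4 TPM in ORE50/ORC4, against 84.9, 79.1, 95.5, 108 and 110 TPM in wt, and repo, the factor that marks glia, at a log2 fold change of 0.02 ± 0.12 (SE; adjusted p = 0.91). Of 36 tested neuropeptide genes, 9 were lower (14 with limma) and 7 higher, and the higher count was 3 against wt 5 and 6, 4 against wt 1 to 3 and 4 without ORE50/ORC4 4. The greatest fall in that list was in Nplp4, with 0 TPM in all ORE50/ORC4 libraries, against 208, 32.1, 65.9, 20.7 and 41 TPM in wt, at least 55.5-fold lower, with a log2 fold change of -11.30, or -10.40 without wt 1. Ilp4, an insulin-like peptide gene that overlaps CG32052, rose with a log2 fold change of 1.28 ± 0.17 (SE).

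The sarcomere list had 9 of 31 tested members lower and 8 higher (3 higher against wt 1 to 3), near the share of all tested genes, with a sum of 28343 ± 1767 TPM (SD, n = 4) in ORE50/ORC4, against 30026 ± 676 TPM (SD, n = 5) in wt. Act57B, a muscle actin, had 12045, 15028, 12250.4 and 13858 TPM in ORE50/ORC4, against 14624 to 15223 TPM in wt, and did not pass the test (adjusted p = 0.296). Obsc, the giant sarcomere protein obscurin, had 17.8, 29.9, 28.8 and 29.2 TPM in ORE50/ORC4, against 66.1, 63.1, 70.9, 73.6 and 69.8 TPM in wt (log2 fold change -1.30 ± 0.18, SE; adjusted p = 5.76e-05). Mp20, a muscle-specific protein, fell to 585 ± 106 TPM (SD, n = 4) in ORE50/ORC4, against 1108 ± 112 TPM (SD, n = 5) in wt, whereas TpnC41C, a troponin C, rose to 10.8 ± 0.53 TPM (SD, n = 4) in ORE50/ORC4, against 5.64 ± 0.257 TPM (SD, n = 5) in wt. Myogenic regulators had 2 of 19 lower and 4 higher, and 1 lower without wt 5, without wt 6, without ORE50/ORC4 1 or without ORE50/ORC4 4. In the heart list, 1 of 12 was lower (2 without ORE50/ORC4 2) and 1 higher. The lower gene, prc, which encodes the pericardial matrix protein pericardin, had 120, 168, 157 and 177 TPM in ORE50/ORC4, against 264, 267, 289, 318 and 305 TPM in wt, and overlaps CG43294.

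Fat body genes had 5 of 15 lower and 4 higher, near the share of all tested genes. FASN1, a fatty acid synthase (chr2L:3056598-3068177), had 9.42, 13.4, 13.5 and 10.1 TPM in ORE50/ORC4, against 120, 65.3, 113, 109 and 104 TPM in wt, a log2 fold change of -3.06 ± 0.24 (SE; adjusted p = 5.74e-07). Lsp1gamma, a storage protein, had 2.97, 2.38, 2.25 and 3.71 TPM in ORE50/ORC4, against 25.9, 28.8, 22.9, 43.5 and 32.3 TPM in wt, and Adh, alcohol dehydrogenase, had 127, 113, 92.3 and 107 TPM in ORE50/ORC4, against 464, 286, 339, 313 and 330 TPM in wt. The ORE50/ORC4 and wt ranges did not overlap for any of these 3 genes. Adh lies in the spans of Adhr and osp. The desaturase Desat1, counted with the oenocyte genes, fell to 30.1 ± 3.6 TPM (SD, n = 4) in ORE50/ORC4, against 88.6 ± 9.7 TPM (SD, n = 5) in wt. By contrast apolpp, the main lipid carrier of the blood, had 365, 509, 300 and 380 TPM in ORE50/ORC4, against 318, 289, 243, 244 and 240 TPM in wt, with overlapping ranges and a log2 fold change of 0.62 ± 0.15 (SE; adjusted p = 0.00337). It overlaps Zyx.

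Among blood cell and basement membrane genes, 7 of 26 were lower (12 with DESeq2, 11 with limma) and 7 higher (3 higher against wt 1 to 3 or with limma). With edgeR both counts were near the share of all tested genes, and the median log2 fold change was 0.05. The higher count was 3 without wt 6 or ORE50/ORC4 2 or 4, and 4 without wt 5 or ORE50/ORC4 1. The lower ones included receptors and a clotting protein of hemocytes: Sr-CI, a scavenger receptor, had 8.77, 9.06, 10.8 and 12.4 TPM in ORE50/ORC4, against 27.5, 28.9, 29.5, 33.2 and 35.4 TPM in wt. NimC1, a phagocytosis receptor, fell with a log2 fold change of -1.05 ± 0.12 (SE) and Hml, hemolectin, with -1.46 ± 0.35. The collagen Col4a1 had 1018, 1512, 1146 and 1379 TPM in ORE50/ORC4, against 1467 to 1591 TPM in wt, and did not pass the test with edgeR (adjusted p = 0.0912), though it did with DESeq2 (adjusted p = 0.048). The laminin LanB2 rose to 210 ± 40.5 TPM (SD, n = 4) in ORE50/ORC4, against 164 ± 5.96 TPM (SD, n = 5) in wt. In the recognition and antimicrobial list, 5 of 11 tested genes were lower, among them PGRP-SC2, an amidase of the gut, at 0.357 to 1.88 TPM in ORE50/ORC4, against 8.9 to 29.2 TPM in wt (log2 fold change -4.23, or -4.89 without ORE50/ORC4 1). Drsl5, of the drosomycin peptide family, rose, with 233, 200, 124 and 200 TPM in ORE50/ORC4, against 0.477, 1.43, 0, 5.24 and 0 TPM in wt (log2 fold change 7.52, or 8.36 without wt 5).

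Malpighian tubule transport genes, which move ions and water in the renal tubules, had 9 of 14 members lower and 1 higher, and the same counts against wt 5 and 6. Their sum was 137 ± 7.99 TPM (SD, n = 4) in ORE50/ORC4, against 200 ± 7.84 TPM (SD, n = 5) in wt. The potassium channel Irk2 had 4.11, 2.6, 5.57 and 3.07 TPM in ORE50/ORC4, against 14, 12.1, 17.2, 25.5 and 22 TPM in wt, a log2 fold change of -2.15 ± 0.37 (SE; adjusted p = 0.000373), and Irk1 fell with -1.56. The single higher gene was Prip, an aquaporin, with a log2 fold change of 0.41 ± 0.10 (SE). In the salivary gland list, 1 of 9 was lower (0 without ORE50/ORC4 1 or 3) and 5 higher (2 against wt 1 to 3, 3 without ORE50/ORC4 1), including pip, a sulfotransferase gene that overlaps fal, at 16.3, 16.4, 12.3 and 15.4 TPM in ORE50/ORC4, against 9.29, 9.56, 7.44, 7.62 and 7.34 TPM in wt. Tracheal genes had 2 of 14 lower (0 against wt 5 and 6) and 2 higher (1 without wt 6 or without ORE50/ORC4 1 or 2).

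Of 15 tested glycolysis genes, 12 were lower and 0 higher, with a median log2 fold change of -0.86 and the same counts against wt 5 and 6. The summed level was 1506, 1618, 1526 and 1544 TPM in ORE50/ORC4, against 4242, 3510, 3846, 3847 and 3948 TPM in wt. Both groups were tight and did not overlap, and in wt of 2 to 4 h the sums were 357, 304 and 393 TPM. Tpi, triosephosphate isomerase (chr3R:30132981-30134599), had 16.7, 29.9, 20.5 and 16.9 TPM in ORE50/ORC4, against 315, 267, 286, 305 and 319 TPM in wt, a log2 fold change of -3.76 ± 0.15 (SE; adjusted p = 1.15e-09). Gapdh2 (chrX:15868145-15869661), which acts on the product of that step, had 124, 144, 148 and 143 TPM in ORE50/ORC4, against 1297, 1078, 1162, 1071 and 1086 TPM in wt. PyK, pyruvate kinase at the last step, had 15.5, 19.4, 21.7 and 20.6 TPM in ORE50/ORC4, against 116, 85.5, 97.4, 90.9 and 97.6 TPM in wt. These 3 genes overlap no other gene, and each fell at least 4-fold, by the fitted folds of 13.5, 7.66 and 4.75.

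Other steps fell less: Pfk by 1.29 on the log2 scale, Gapdh1 by 1.06, Pgi by 0.98, Eno by 0.86, Ald1 by 0.56 and Pglym78 by 0.48. Ldh, on a side branch, was at 138, 124, 113 and 119 TPM in ORE50/ORC4, against 180, 153, 165, 163 and 170 TPM in wt. Gpdh1, on another side branch, and Hex-A had log2 fold changes of -0.78 and -0.37. Neither gene passed against wt 1 to 3 (adjusted p = 0.0562 and 0.0568, edgeR). The uncalled members were Hex-C, which ran from 1.3 to 32.9 TPM in ORE50/ORC4, against 27.6 to 41.9 TPM in wt and passed as lower without ORE50/ORC4 3 (adjusted p = 0.0193), Pgk (log2 fold change -0.05 ± 0.07, SE) and ERR, the nuclear receptor known to switch on glycolysis in late fly embryos, with 24.5, 23.2, 26.8 and 31.9 TPM in ORE50/ORC4, against 27.4, 27.9, 29.1, 25.8 and 28.1 TPM in wt.

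All 12 tested mitochondrially encoded subunits were higher, with a median log2 fold change of 0.91, and 8 were higher against wt 5 and 6. The sum was 95339, 91847, 106639 and 96712 TPM in ORE50/ORC4, against 64906, 63391, 60222, 77849.7 and 77503 TPM in wt. Wt 5 and 6 lay between wt 1 to 3 and the mutant libraries, and mt:CoI, a cytochrome oxidase subunit, did not pass against them (log2 fold change 0.19, adjusted p = 0.101). With a covariate for depth class, the log2 fold change of mt:CoI was 0.18 (adjusted p = 0.0938, edgeR). Why wt 5 and 6 lie between the other libraries was not tested. Mitochondrial ribosomal proteins, encoded in the nucleus, had 48 of 71 members higher and 1 lower, and 52 of 72 higher against wt 5 and 6, by a small median log2 fold change of 0.31. Nuclear genes of oxidative phosphorylation had 7 of 67 lower and 10 higher, below the share of all tested genes in both directions. The lower count was 3 without wt 3, wt 6 or ORE50/ORC4 1 and 4 without wt 5 or ORE50/ORC4 3, and the higher count was 6 without ORE50/ORC4 1 and 19 without ORE50/ORC4 2. COX5B, a cytochrome oxidase subunit, had 184, 157, 172 and 170 TPM in ORE50/ORC4, against 299, 293, 309, 243 and 254 TPM in wt, the largest fall in that list among members of at least 10 TPM, and the ATP synthase genes ATPsynbeta and ATPsynC had log2 fold changes of 0.01 ± 0.07 and -0.01 ± 0.07 (SE).

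Cytosolic ribosomal proteins had 34 of 78 higher, 1 lower and the rest not called, with a median log2 fold change of 0.18, but 20 higher against wt 1 to 3, 22 without ORE50/ORC4 1 and 12 with limma, which is a smaller share than that of all genes with limma. The lower count was 2 without wt 5, wt 6 or ORE50/ORC4 1. RpS5b, a paralog known from the germ line, had 117, 112, 91.2 and 98.2 TPM in ORE50/ORC4, against 31.2, 58.4, 39.8, 41.7 and 39.5 TPM in wt. Translation factors had 20 of 44 higher (13 with limma) and 2 lower, for example eIF2beta (log2 fold change 0.58 ± 0.09, SE), which overlaps ver. Proteasome subunits had 24 of 32 higher (15 with limma) and 0 lower with a median of 0.29, and 21 higher against wt 5 and 6. Rpn9, a regulatory-particle subunit that overlaps 2 genes, had 62.2, 59.4, 55.4 and 54.8 TPM in ORE50/ORC4, against 45.1, 46.7, 43, 39.8 and 33.5 TPM in wt. The summed proteasome level overlapped between the groups, since ORE50/ORC4 3 at 2185 TPM lay below wt 2 at 2349 TPM.

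The vacuolar proton ATPase, which acidifies organelles and the lumen of some epithelia, had 14 of 22 tested subunit genes lower and 3 higher, 13 lower against wt 5 and 6 and 9 lower against wt 1 to 3. Its sum was 5109.8, 5528, 5368 and 5550.1 TPM in ORE50/ORC4, against 7451, 6754, 7403, 7238 and 7416 TPM in wt. Vha68-2, a catalytic subunit, had 257, 305, 290 and 315 TPM in ORE50/ORC4, against 591, 579, 654, 613 and 625 TPM in wt, a log2 fold change of -0.98 ± 0.10 (SE; adjusted p = 4.89e-06), and its values are fractional in 9 of 9 libraries. The groups of Vha68-2 and of the sum were apart. VhaAC45RP rose to 162 ± 9.68 TPM (SD, n = 4) in ORE50/ORC4, against 106 ± 3.22 TPM (SD, n = 5) in wt.

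**Figure D4:**
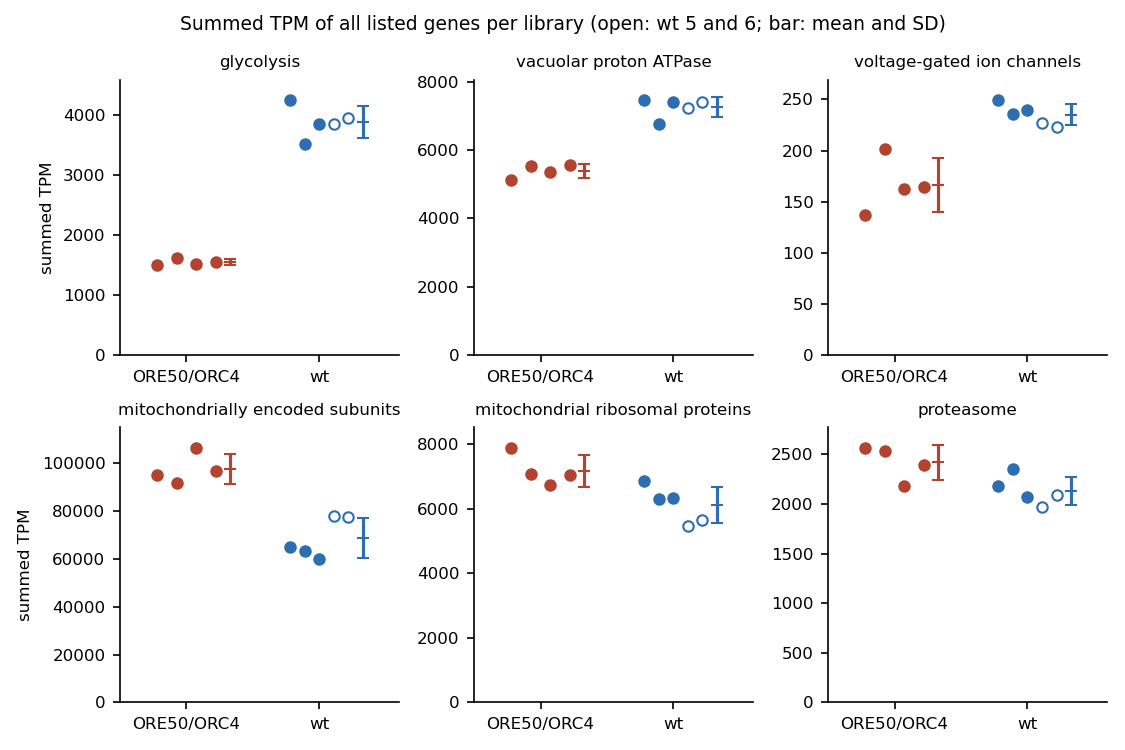
Summed TPM of 6 gene lists in each ORE50/ORC4 (left) and wt library at 14 to 17 h, with mean and SD; open points are wt 5 and 6. Glycolysis (1548 ± 49 TPM in ORE50/ORC4, against 3879 ± 262 TPM in wt), the vacuolar ATPase and the voltage-gated channels are lower in ORE50/ORC4 without overlap, the mitochondrially encoded subunits are higher, and the proteasome sums overlap.

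Of 46 tested replication and cell cycle genes, 19 were lower and 4 higher, and 19 were lower and 10 higher against wt 5 and 6. The higher count was 8 without wt 2 and 2 without ORE50/ORC4 1. Their sum was 671, 724, 468 and 530 TPM in ORE50/ORC4, against 1046, 1538, 1072, 1969 and 1974 TPM in wt, and 11531, 11014 and 11696 TPM in wt of 2 to 4 h. Wt 5 and 6 were thus the farthest from the mutant, and the early embryos were far above all libraries of 14 to 17 h. How far an unequal share of young or maternal transcripts in the libraries enters these falls was not tested. CycB, the B-type cyclin of mitosis (chr2R:22803521-22806948), had 7.29, 21.3, 5.09 and 6.29 TPM in ORE50/ORC4, against 146, 246, 180, 491 and 517 TPM in wt, a log2 fold change of -4.95 ± 0.55 (SE; adjusted p = 1.21e-05), or -5.54 without ORE50/ORC4 2. The securin pim had 3.04, 3.89, 2.46 and 1.29 TPM in ORE50/ORC4, against 37.8, 58.1, 46.6, 104 and 106 TPM in wt. The mitotic kinase polo fell with a log2 fold change of -3.22 ± 0.34 (SE), the cyclin CycB3 with -4.33 and the checkpoint kinase BubR1 with -2.94, and all were in every ORE50/ORC4 library below every wt library.

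Lower values of the same kind were found for twe, a Cdc25 phosphatase known from meiosis that overlaps EndoGI, with 0, 2.88, 0.294 and 0.431 TPM in ORE50/ORC4, against 23, 29.4, 22.8, 68.5 and 68.4 TPM in wt. Its log2 fold change of -5.44 was -7.36 without ORE50/ORC4 2. Among replication genes, dup had 9.8, 16, 6.95 and 9.67 TPM in ORE50/ORC4, against 35.6, 49.3, 38.2, 85.6 and 87.1 TPM in wt, geminin fell with a log2 fold change of -1.36 ± 0.25 (SE) and the helicase subunit Mcm7 with -1.76 ± 0.31. The 4 genes called higher, PCNA, RnrS, Psf1 and E2f2, had log2 fold changes of 0.64, 0.62, 0.72 and 0.34. None of these 4 passed against wt 1 to 3. PCNA, the sliding clamp, had 97.6, 79.8, 54.2 and 51.4 TPM in ORE50/ORC4, against 55.2, 61.7, 42.9, 37.6 and 42.2 TPM in wt, and the helicase subunit Mcm3 did not pass the test (log2 fold change -0.06 ± 0.25, SE).

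Germ line genes were lower in 15 of 18 tested members and higher in 1 (2 without ORE50/ORC4 3, 0 without ORE50/ORC4 4), and in 14 and 1 against wt 5 and 6. The sum was 188, 228, 161 and 204 TPM in ORE50/ORC4, against 229, 306, 230, 267 and 256 TPM in wt, with ORE50/ORC4 2 within 1 TPM of the lowest wt library. The piRNA nuclease gene zuc, which overlaps CG34163, had 0.905, 1.3, 1.64 and 1.03 TPM in ORE50/ORC4, against 5.22, 11.3, 7.21, 16.8 and 12.7 TPM in wt. The differentiation gene bam, which overlaps CG11854, had 0.189, 0.87, 0.611 and 0.322 TPM in ORE50/ORC4, against 3.46, 6.13, 4.8, 12.8 and 11.7 TPM in wt, and aub, a piRNA-binding protein gene that overlaps TTLL4A, had 1.54 to 3.21 TPM in ORE50/ORC4, against 4.16 to 11.2 TPM in wt. The groups of all 3 were apart, with wt 5 and 6 highest for zuc, bam and aub. The pole plasm gene osk was at 0.0559 to 0.318 TPM in ORE50/ORC4, against 2, 20.6, 2.14, 5.27 and 3 TPM in wt, a log2 fold change of -5.02, or -3.92 without wt 2. The helicase gene vas, which overlaps solo and vig, had 1.86 to 2.89 TPM in ORE50/ORC4, against 2.9 to 4.95 TPM in wt. Genes typical of the testis were mostly untested, with 7 of 37 listed genes passing the filter, 2 lower and 2 higher (0 lower without wt 3 or ORE50/ORC4 1 and 1 without wt 1, and 1 higher without wt 1, 3, 5 or 6 or ORE50/ORC4 4), and their sum was 18.3 ± 1.39 TPM (SD, n = 4) in ORE50/ORC4, against 16.7 ± 2.03 TPM (SD, n = 5) in wt.

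The ATP-dependent chromatin remodelers, machines that move nucleosomes, were lower in 15 of 24 tested genes and higher in 1, with a median log2 fold change of -0.56, and 16 were lower against wt 5 and 6. Their sum was 677, 827, 581 and 664 TPM in ORE50/ORC4, against 923, 1054, 877, 1189 and 1221 TPM in wt, and 4936 TPM on average in wt of 2 to 4 h, so the order of the groups is that of the mitotic genes. Iswi, the motor of the nucleosome spacing complexes, had 21.5, 32.8, 19.6 and 20.7 TPM in ORE50/ORC4, against 40.4, 52.3, 40.3, 73.4 and 75 TPM in wt. The histone chaperone subunit Caf1-55 fell with a log2 fold change of -1.46 ± 0.28 (SE), polybromo with -1.41 ± 0.29 and brm, the Brahma motor, which overlaps several genes, with -1.23 ± 0.19. Bap55 rose by 0.52 ± 0.14. Polycomb and Trithorax group genes had 9 of 23 lower (4 without ORE50/ORC4 3) and 2 higher (4 without wt 2), with Sfmbt at a log2 fold change of -1.24 ± 0.26 (SE). Among the 12 members that overlap no other gene, 2 were lower and 0 higher, against 28.8% lower of all tested genes without an overlap.

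Because the series title concerns pausing of RNA polymerase II, the factors of that step were listed too. Of 17 tested pausing and release factors, 4 were lower and 2 higher, and 0 were lower against wt 1 to 3. TfIIS, the cleavage factor that restarts stalled polymerase, had 65.3, 73.1, 57 and 59.1 TPM in ORE50/ORC4, against 49.3, 44.8, 41.1, 42.3 and 41.7 TPM in wt, and overlaps CG33679. The elongation factor gene ear fell to 20.2 ± 4.58 TPM (SD, n = 4) in ORE50/ORC4, against 34.5 ± 7.86 TPM (SD, n = 5) in wt, and did not pass against wt 1 to 3 (adjusted p = 0.0571). Of 12 RNA polymerase II subunit genes, 3 were lower and 4 higher (2 with limma or without ORE50/ORC4 1), with Polr2B at 25.5, 32.8, 19.7 and 25.6 TPM in ORE50/ORC4, against 41.9, 52.6, 46.2, 73.2 and 73.7 TPM in wt, and Polr2D at a log2 fold change of 0.83 ± 0.11 (SE).

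**Figure D5:**
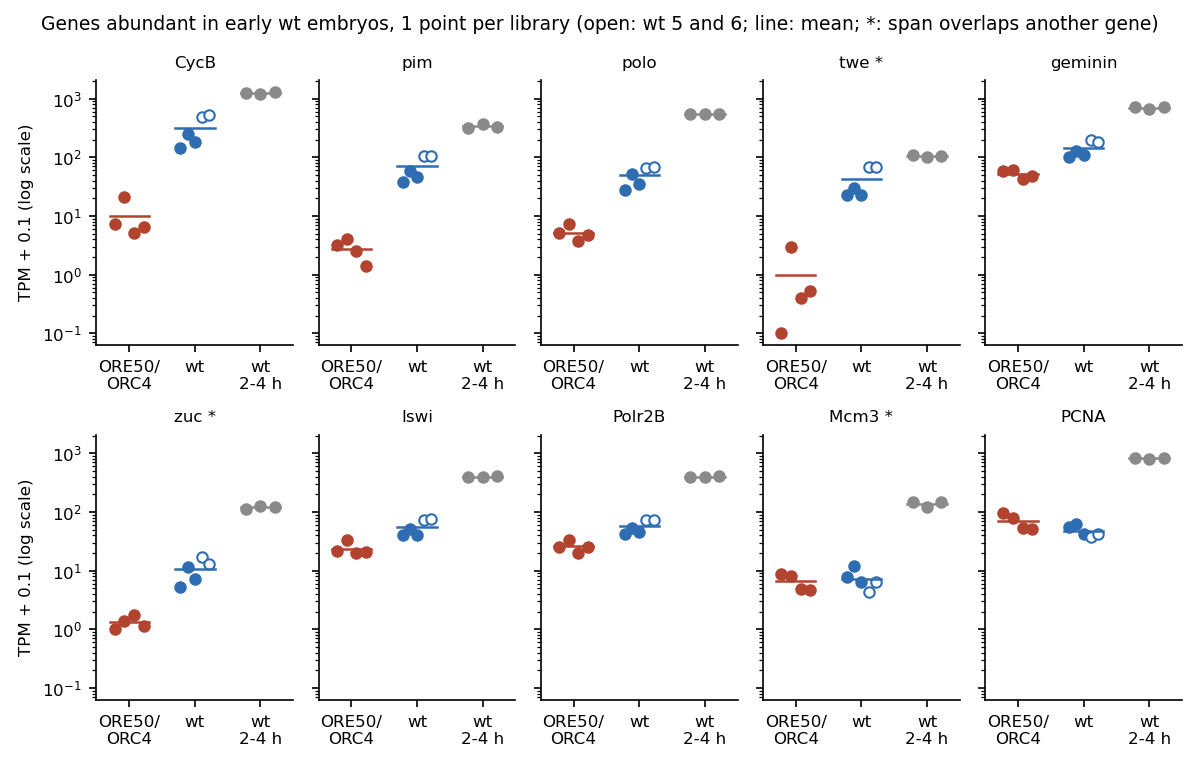
TPM per library, on a log axis, of 10 genes of dividing cells, the germ line and chromatin in ORE50/ORC4 and wt at 14 to 17 h and in wt at 2 to 4 h; open points are wt 5 and 6 and an asterisk marks an overlapping gene. CycB, pim and polo are lowest in ORE50/ORC4, higher in wt with libraries 5 and 6 on top, and highest at 2 to 4 h, whereas PCNA and Mcm3 do not separate ORE50/ORC4 from wt of the same age.

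Among genes with a mean of at least 100 counts that overlap no other and whose groups were apart, the falls furthest by log2 fold change were in CG42815, Nplp4, Jon99Fi and retinin, a corneal lens protein gene (chr3L:16331933-16332789). Retinin had 0, 0, 0 and 0.297 TPM in ORE50/ORC4, against 150, 151, 163, 148 and 120 TPM in wt, and CG42815 was at 0 in ORE50/ORC4, against 443, 134, 238, 186 and 189 TPM in wt. By counts retinin was 2003-fold lower (95% counting interval 359 to 79127), with a log2 fold change of -10.57, or -12.86 without ORE50/ORC4 4, and CG42815 at least 81.9-fold lower. CG9682 was counted only in ORE50/ORC4 1 of the mutant libraries, at 0.101 TPM, against 7.1 to 28.5 TPM in wt (log2 fold change -8.71, or -10.99 without that library). CG12491 had estimates of at most 2e-06 TPM in ORE50/ORC4, against 52.4, 13.1, 22.6, 36 and 0.000236 TPM in wt, so its groups were apart only by such small estimates in wt 6 and its fall rests on wt 1, 2, 3 and 5.

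The rises included genes that were at or near 0 in wt. OregonR is a separate strain, so the background of the mutant stock cannot be told apart from the lola alleles. A marker of such backgrounds, w, the white gene of eye pigment, had 1.77, 0.903, 0.568 and 1.27 TPM in ORE50/ORC4, against 7.94, 7.63, 7.64, 7.06 and 9.15 TPM in wt, and overlaps kirre. The amino acid transporter gene polyph (chr2R:10903570-10905563) had 83.4, 74, 59.8 and 68.8 TPM in ORE50/ORC4, against 0 TPM in all wt libraries, at least 341-fold higher. The receptor gene mthl8 (chr3L:22428-26308) had 10.1, 9.61, 9.78 and 11.4 TPM in ORE50/ORC4, against 0, 0, 0.0184, 0 and 0 TPM in wt. Its log2 fold change of 10.23 was 11.47 without wt 3. The odorant-binding protein gene Obp46a had 47.3 to 66.8 TPM in ORE50/ORC4, against at most 0.992 TPM in wt, 120-fold higher by counts (95% counting interval 73.3 to 211), and sordd2 had 16.5 to 31.8 TPM in ORE50/ORC4, against at most 0.649 TPM in wt (log2 fold change 7.87, or 9.0 without wt 6). CG11034 was low but counted in every wt library, with 36.5, 43.4, 48 and 47.5 TPM in ORE50/ORC4, against 4.46, 4.71, 4.74, 5.41 and 3.86 TPM in wt. The remaining rises named by the rule were CG12896 (log2 fold change 4.57), CG31810 (3.61), CG7881 (3.20), lncRNA:CR44922 (2.96), CG31809 (2.92) and CG42329 (4.30, or 6.02 without wt 2). Estimates of CG12896, CG31809, CG31810 and CG42329 are fractional in 8 or 9 of 9 libraries, so their reads may be shared with other genes and the values are uncertain.

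For overlapping genes with the largest changes, the summed counts of all genes in the overlap are given beside the gene. The partners hold most of each sum here, so a sum cannot show whether a gene's change lies in the assignment of reads. CG17786 had 49.6 CPM in ORE50/ORC4, against 0 in wt, but together with twin, which it overlaps, 183 ± 48.8 CPM (SD, n = 4) in ORE50/ORC4, against 247 ± 40 CPM (SD, n = 5) in wt. CG45078 likewise was 22.1 CPM in ORE50/ORC4, against 0 in wt, while it and its partners CG45076 and fau summed to 444 ± 69 CPM (SD, n = 4) in ORE50/ORC4, against 711 ± 135 CPM (SD, n = 5) in wt; its log2 fold change of 11.86 was 10.90 without ORE50/ORC4 1. For CG17786 and CG45078 the gene thus rose while the mean of the sum was lower in ORE50/ORC4. For p24-2 with Unc-115b the sum was 268 ± 9.5 CPM (SD, n = 4) in ORE50/ORC4, against 143 ± 12.3 CPM (SD, n = 5) in wt, and for CG9514 with Flo2 it was 305 ± 20.7 CPM (SD, n = 4) in ORE50/ORC4, against 229 ± 8.95 CPM (SD, n = 5) in wt, higher in both cases. CG17029, at 0 in ORE50/ORC4, against 40.3 CPM in wt, overlaps brm, and the pair had 99.4 ± 17.8 CPM (SD, n = 4) in ORE50/ORC4, against 275 ± 36.7 CPM (SD, n = 5) in wt. Muc96D, also at 0 in ORE50/ORC4, against 19.8 ± 23 CPM in wt, overlaps Fur1, and the pair had 177 ± 21.8 CPM (SD, n = 4) in ORE50/ORC4, against 295 ± 24.9 CPM (SD, n = 5) in wt. Its log2 fold change of -11.69 was -10.65 without wt 1.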

How the data were processed

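For every library of polyadenylated whole-embryo RNA the authors deposited a table of 17753 genes, holding estimated counts, TPM values and lengths, per the file headers. The submitters' processing notes name kallisto, CASAVA 1.8.2 and the dm6 build, with no role or order. Whether the counting used strand is not given in the sources used here. The deposited estimated counts are not all whole: 19.1% to 21.9% of the values of a library are fractional (tolerance 0.001). The deposited TPM values are relative to all genes of a library. The Ensembl annotation of BDGP6 gave symbols and 1-based positions for 17625 genes (99.3%). The listed length equals the whole gene span for 99.3% of these, and 8396 (47.6%) overlap another gene.

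Estimated counts were rounded and tested with edgeR 4.0.16 in R 4.3.3: quasi-likelihood test, TMM scaling, filterByExpr with a minimum of 10 counts, the 13 libraries of 14 to 17 h in a single fit without covariates, and Benjamini-Hochberg adjustment over all 11431 genes tested, called under 0.05. Each SE of a log2 fold change was derived from that test, as the absolute log2 fold change divided by the square root of the F statistic. It is thus approximate, above all for genes near 0 counts in a group. The fit was tested on simulated data. DESeq2 1.42.0 and limma 3.58.1 on log2(TPM + 1) and log2(TPM + 0.1), other filters and scalings, subsets of wt, thinned counts, a depth covariate and left-out libraries were alternatives. No pair of libraries of a group matched within sampling noise (chi-square per degree of freedom 5.29 to 41.3 over genes), so none was treated as a duplicate deposit. This does not show that libraries came from separate collections. Depth per library and the floor of 3 counts it gives are in the results. Intervals and floors cover counting error only, since these reads carry no molecular identifiers. Where a mutant or wt group had few counts of a gene, its ratio is given with a 95% counting interval.

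ORE50/ORC4 and wt share the title numbers 1, 2 and 3. Their deviations from the group means correlated across genes with r of -0.0179, 0.218 and 0.23 for equal numbers. For unequal numbers r ran from -0.246 to 0.0892. Numbers 2 and 3 thus correlated best with their equal number, but number 1 did not. The labels do not pair equal numbers, and they were not taken as pairs.

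The comparison, the 65 gene lists and the naming rule were chosen with earlier results of these data known. The rule named lola, the 12 lower and 12 higher genes with the largest log2 fold change among called genes without an overlap that had a mean of at least 100 counts and groups apart in CPM, and 4 of each with an overlap. In each list it named the 2 members of highest TPM and the called extremes of at least 10 TPM. It gave 240 genes. A further 66 genes, and others given only by a log2 fold change, were chosen after their values were seen. In the lists, 5 names that matched a different gene were left out. No list was tested as a set. Promoter and protein sequences were not analysed here.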

Additional observations from a re-analysis of the deposited data

Results flagged for a closer look

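For the 205 genes whose values were checked in both groups (410 sets of libraries), 25 sets held a library whose gap to its neighbour was large for the range of its group. Chance gives about 1 in 20 for a single set. The genes share the same libraries, so this rate cannot tell chance from a trait of a library, and the pattern is not read further. Values are in TPM, each followed by the range of the other libraries of its group.

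Among ORE50/ORC4 libraries, number 2 was high for CycB at 21.3 (others 5.09 to 7.29), CycB3 at 12.2 (3.06 to 4.54), twe at 2.88 (0 to 0.431), Iswi at 32.8 (19.6 to 21.5) and polybromo at 21.9 (12 to 13.7). For Jon65Aiii it was low at 274 (284 to 285). ORE50/ORC4 1 was low for Gad1 at 12.6 (16.9 to 17.4) and for Obsc at 17.8 (28.8 to 29.9), and high for CG45078 at 30 (4.65 to 6.97). ORE50/ORC4 3 was low for Rpn10 at 111 (121 to 123) and high for obst-F at 6.02 (2.94 to 3.27).

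Among wt libraries, number 1 was high for Jon25Bi at 317 (others 111 to 158), Peritrophin-15a at 195 (41.1 to 72.6) and Nplp4 at 208 (20.7 to 65.9). It was also high for Sh at 4.59 (3.77 to 3.99) and for Atpalpha at 189 (175 to 178). Library wt 2 was high for osk at 20.6 (2 to 5.27), nerfin-1 at 16.4 (10 to 11.1), Sema1b at 40.1 (35.1 to 36.3) and CG42329 at 1.77 (0.0645 to 0.269), and low for zetaTry at 116 (155 to 171), Pglym78 at 305 (335 to 342) and Ugt35C1 at 18.3 (30.3 to 32.1). RpL22 was high in wt 3 at 731 (582 to 624), and CG12896 in wt 6 at 108 (37.2 to 56.3).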

How the results depend on the processing

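The counts of called genes, 3087 lower and 3083 higher, stayed within 1.5 times under every alternative of scaling, test, filter or samples that was run. They narrowed to 1325 lower and 600 higher at a change of at least 2-fold, which is a stricter rule, and to 1707 and 1583 among genes without an overlap, which are fewer genes. DESeq2 called 3331 lower and 2881 higher, RLE scaling 3234 and 2906, and limma on log2(TPM + 0.1) 3523 and 2162. With wt 1 to 3 alone 2556 were lower and 2515 higher, with counts thinned to the smallest total 2836 and 2822, and with a covariate for depth class 3043 and 2936. Leaving out each library in turn gave 2723 to 3012 lower and 2692 to 3102 higher. On libraries 1, 2 and 3, the fit with a replicate block called 2758 lower and 2353 higher, against 2343 and 2222 without it. The labels do not pair equal numbers and ORE50/ORC4 1 correlated best with wt 2 (r = 0.0672), so the block is not read as a pairing. The median log2 fold change of all genes stayed between -0.08 and 0.03. Of the gene changes named, 0 reversed in any alternative as a called change. Of the called genes with values in the text, mt:CoI, para, RpL22, Teh4, TwdlM, Ssk and Ddc were not called against wt 5 and 6, where CG12491 was not tested, and lola, PCNA, RnrS, Psf1, E2f2, Gpdh1, Hex-A, Mal-A3, Osi6, Osi7, Ssk and ear were not called against wt 1 to 3. Depth limits genes of a few counts, whose folds are given as bounds or counting intervals.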

Other observations

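Detoxification enzymes were called lower more often, and higher less often, than the 27.0% of all tested genes in each direction. Of 72 tested cytochrome P450 genes, 32 were lower (44.4%) and 12 higher (16.7%). Of 34 glutathione S-transferases, 16 were lower (47.1%) and 8 higher (23.5%), and of 35 UDP-glycosyltransferases, 16 were lower (45.7%) and 8 higher (22.9%). Cyp12c1 had 0, 0.284, 0.119 and 0 TPM in ORE50/ORC4, against 9.67, 9.03, 11.5, 14.6 and 10.8 TPM in wt (log2 fold change -6.61, or -7.94 without ORE50/ORC4 2). Cyp9c1, which overlaps CG13594 and an antisense gene, had 52.9, 44.3, 63.3 and 61.1 TPM in ORE50/ORC4, against 0.639 to 3.62 TPM in wt. Ugt35C1 was at 0.382 to 0.87 TPM in ORE50/ORC4, against 18.3 to 32.1 TPM in wt, and GstE6 rose to 325 to 356 TPM in ORE50/ORC4, against 166 to 218 TPM in wt.

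Odorant-binding proteins had 10 of 24 tested genes lower (5 against wt 5 and 6) and 5 higher, and chemoreceptors 3 of 37 lower (6 without ORE50/ORC4 3, 5 without ORE50/ORC4 2 or 4, 1 against wt 5 and 6) and 9 higher (186 listed). Obp83g had 1328, 1155, 850 and 1111 TPM in ORE50/ORC4, against 593, 641, 509, 424 and 419 TPM in wt, while Obp44a, which overlaps Pabp2, had 106 to 136 TPM in ORE50/ORC4, against 298 to 434 TPM in wt. Methuselah-like receptors had 2 of 9 lower and 5 higher. Eye pigment genes had 2 of 18 lower and 8 higher, or 5 and 5 against wt 5 and 6, and the lower count was 4 without wt 1 or ORE50/ORC4 2 and 1 without wt 3, 5 or 6 or ORE50/ORC4 1 or 3. The list holds ry, xanthine dehydrogenase, at 29.4, 39.3, 28.7 and 39.5 TPM in ORE50/ORC4, against 14.3, 15.7, 15.5, 14.2 and 13.5 TPM in wt. Sense organ genes had 2 of 23 lower (1 without wt 3 or ORE50/ORC4 1, 3 or 4) and 5 higher (8 without wt 2), and oenocyte genes 2 of 8 lower and 3 higher.

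Hox genes had 0 of 10 lower (1 without ORE50/ORC4 2) and 3 higher (0 with limma), gap and pair-rule genes 7 of 13 lower and 0 higher (3 and 2 against wt 5 and 6), and segment polarity genes 6 of 17 lower (3 without ORE50/ORC4 3) and 2 higher (0 without wt 5, wt 6 or ORE50/ORC4 2, and 1 without ORE50/ORC4 1). Notch pathway genes had 3 of 18 lower and 1 higher (2 without ORE50/ORC4 3, 5 against wt 5 and 6). The gap gene hb had 1.32, 2.38, 1.54 and 1.56 TPM in ORE50/ORC4, against 3.63, 7.22, 4.05, 6.34 and 5.71 TPM in wt. Su(H), the Notch effector, had 3.47 to 6.03 TPM in ORE50/ORC4, against 8.68 to 14 TPM in wt. Epidermal regulators had 1 of 14 lower (2 without ORE50/ORC4 2, 0 without ORE50/ORC4 3) and 4 higher, and zona pellucida genes 3 of 15 lower and 2 higher.

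Ecdysteroid synthesis genes had 4 of 10 lower and 1 higher (2 without wt 5 or ORE50/ORC4 3), and ecdysone response genes 5 of 20 lower and 8 higher (4 with limma or against wt 1 to 3). The ecdysone-induced receptor gene Eip75B, which overlaps 4 genes, had 0.474, 0.562, 0.625 and 0.397 TPM in ORE50/ORC4, against 1.66, 1.74, 1.8, 2.67 and 2.45 TPM in wt. ImpE2, an ecdysone-inducible gene, had 162, 128, 49.3 and 84.2 TPM in ORE50/ORC4, against 17.8, 26.3, 16.2, 7.73 and 24 TPM in wt, with ORE50/ORC4 1 and 2 above 3 and 4 as for the Osiris genes.

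Among heat shock genes, 1 of 23 was lower (2 without wt 2 or ORE50/ORC4 2) and 4 higher (2 without wt 5, wt 6 or ORE50/ORC4 2), with 2 lower and 2 higher against wt 5 and 6. Hsp67Bc, a small heat shock protein, had 1.53, 4.47, 1.13 and 0.743 TPM in ORE50/ORC4, against 114, 126, 114, 99.8 and 106 TPM in wt, a log2 fold change of -5.71, or -6.45 without ORE50/ORC4 2. Replication-dependent histones had 14 of 48 tested copies higher and 0 lower, and 28 of 47 higher against wt 5 and 6, but the copies are near-identical and their polyadenylated RNA is a small part of histone RNA. By position, genes whose start lies within 0.5 Mb of that of lola had 25.8% of 93 tested members lower and 35.5% higher, and those at 0.5 to 1 Mb had 37.4% of 139 lower and 23.7% higher, against 27.0% and 29.7% for the whole arm 2R. Genes with spans above 20000 bases had 34.9% lower and 16% higher, and those of 1000 to 2000 bases 20.2% lower and 33.6% higher.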
